A study of Homo sapiens with 4 samples.

Results

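The genes described here encode plasma proteins that liver cells make and secrete, among them the acute phase proteins whose plasma levels change in inflammation. They were chosen by name, as a list of 36 gene symbols, and all 36 were found among the 18398 rows of each deposited table. This list and the lists of other genes used below were chosen with earlier results of these data known. RNA of the hepatocellular carcinoma (HCC) cell lines Huh1 and Huh7 was sequenced 48 h after the cells had received a negative control siRNA (NCsiRNA) or, at the same 15 nM, an siRNA against CDCA8 (CDCA8siRNA), a subunit of the chromosomal passenger complex, which guides chromosomes and daughter cells apart in cell division. This gave 4 groups of 1 library each: Huh1 with NCsiRNA, Huh1 with CDCA8siRNA, Huh7 with NCsiRNA and Huh7 with CDCA8siRNA. The dose, the time and the siRNA variant, CDCA8-1, come from the study's methods, and the control cells received the same cationic lipid as the others. Because there were no replicates, the spread between cultures of a condition was not measured, and 1 siRNA sequence stood for the silencing of CDCA8.

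Hepatocytes release most of the protein of blood plasma through the endoplasmic reticulum and the Golgi apparatus. Albumin keeps up the osmotic pressure of plasma and carries fatty acids and drugs, while other members carry iron, haem, copper, retinol, thyroid hormone and vitamin D, or inhibit proteases. In an acute phase response, interleukin-6 acting through STAT3 and interleukin-1 acting through NF-kappa-B and the C/EBP factors raise some of these genes, such as CRP, SAA1, ORM1 and HP, and lower others, such as ALB, TTR and TF. Basal transcription of ALB and many of the others in liver cells depends on HNF1, HNF4A, FOXA and C/EBP proteins.

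CDCA8 itself had 24.1 RPKM (reads per kilobase of transcript after scaling to sequencing depth) in Huh1 with NCsiRNA and 5.86 RPKM with CDCA8siRNA, and 51.5 and 7.36 RPKM in Huh7, so that 24.3% and 14.3% were left. The libraries held 12197606 to 13384836 reads, a depth deduced from the values. All 9 hepatocyte markers of a fixed list, from ALB to HNF4A, were at 1 RPKM or more in each of the 4 libraries. Markers of other cells were uneven. With NCsiRNA the bile duct keratin KRT7 was at 84.4 RPKM in Huh1 and 0.660 RPKM in Huh7, while the other bile duct markers were higher in Huh7, KRT19 at 12.0 and 110 RPKM, SOX9 at 3.72 and 30.4 RPKM and EPCAM at 13.6 and 22.7 RPKM. The fibroblast collagen COL1A1 was at 0.115 and 107 RPKM. Of the leukocyte markers, CD68 was at 23.3 and 3.71 RPKM, and PTPRC and CD163 stayed below 1 RPKM in every library. Of the endothelial markers, CDH5 was listed at 0 in all 4 libraries, VWF at 0 in 3 of them, and the symbol PECAM1 was not found among the rows.

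The stretch around the transcription start of 5 members is shown because they stand for the different courses described in the results. ALB, AHSG and ORM1 were lower with CDCA8siRNA in both cell lines, LEAP2 was lower by over 2-fold in Huh7, and APCS was listed at 0 in Huh7 only. The windows are from RefSeq on GRCh38.p14, run from 250 bases before to 50 after the start and are written 5′ to 3′ on the strand of the gene. Of the 36 members, 26 had such a window, 32 windows in all. Capitals mark letters of a motif on either strand: GTTAAT, a core of the HNF1 site, or TTGCNNAA, a C/EBP site. A further motif, TTCNNNGAA for STAT factors, does not occur in these 5 windows.
ALB, chr4:73404037-73404336, plus strand: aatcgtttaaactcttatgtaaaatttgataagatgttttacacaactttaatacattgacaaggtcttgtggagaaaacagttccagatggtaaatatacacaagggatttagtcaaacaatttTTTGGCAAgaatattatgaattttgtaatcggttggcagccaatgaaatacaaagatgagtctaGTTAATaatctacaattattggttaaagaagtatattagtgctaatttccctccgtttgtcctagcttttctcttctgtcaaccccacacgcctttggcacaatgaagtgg
AHSG, chr3:186612810-186613109, plus strand: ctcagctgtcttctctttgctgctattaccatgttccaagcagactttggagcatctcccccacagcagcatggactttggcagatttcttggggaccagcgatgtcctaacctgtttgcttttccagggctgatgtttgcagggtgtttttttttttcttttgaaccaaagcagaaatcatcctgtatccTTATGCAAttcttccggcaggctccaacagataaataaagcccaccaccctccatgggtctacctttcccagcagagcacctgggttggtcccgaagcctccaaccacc
ORM1, chr9:114322848-114323147, plus strand: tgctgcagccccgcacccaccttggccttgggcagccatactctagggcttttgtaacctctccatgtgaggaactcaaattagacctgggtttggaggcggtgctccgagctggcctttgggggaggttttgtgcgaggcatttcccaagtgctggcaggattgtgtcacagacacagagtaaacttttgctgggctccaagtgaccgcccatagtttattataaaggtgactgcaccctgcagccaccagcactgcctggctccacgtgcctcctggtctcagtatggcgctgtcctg
LEAP2, chr5:132873418-132873717, plus strand: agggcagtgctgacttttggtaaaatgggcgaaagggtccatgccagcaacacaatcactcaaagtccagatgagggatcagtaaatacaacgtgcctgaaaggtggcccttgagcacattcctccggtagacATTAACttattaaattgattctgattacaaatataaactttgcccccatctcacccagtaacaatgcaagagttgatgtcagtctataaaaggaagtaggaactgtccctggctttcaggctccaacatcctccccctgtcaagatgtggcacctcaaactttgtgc
APCS, chr1:159587576-159587875, plus strand: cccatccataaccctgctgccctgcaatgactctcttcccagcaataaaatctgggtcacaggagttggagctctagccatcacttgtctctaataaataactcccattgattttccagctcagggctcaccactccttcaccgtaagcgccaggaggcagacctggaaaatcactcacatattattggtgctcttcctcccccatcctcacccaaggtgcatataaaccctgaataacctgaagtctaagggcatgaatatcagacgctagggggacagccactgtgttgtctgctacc

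GTTAAT occurred once in the windows of ALB and LEAP2, and TTGCNNAA once in those of ALB and AHSG, where no capitals overlap. Over all members, 4 of 32 windows held GTTAAT (12.5%, against 6.88% of all 35116 RefSeq windows), 7 held TTGCNNAA (21.9%, against 10.5%) and 7 held TTCNNNGAA (21.9%, against 7.66%). Those with TTGCNNAA were AHSG, ALB, FETUB, HPX, RBP4, SAA4 and TF. A match to a motif is a description of the sequence and does not show that a factor binds there.

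Together the 36 genes made up 1.45% of the summed RPKM in Huh1 with NCsiRNA and 1.17% with CDCA8siRNA, and 0.744% and 0.522% in Huh7. The sum was thus lower with CDCA8siRNA in both cell lines and lower in Huh7 than in Huh1 with either siRNA. ALB alone accounted for 51.2% and 50.6% of the list's sum in Huh1 and for 37.0% and 33.2% in Huh7. Without ALB, the others held 0.707%, 0.576%, 0.469% and 0.349% of the summed RPKM, in the same order of libraries. Lower values in such a bulk measurement can come from fewer cells that express a gene or from less RNA per cell, and these cannot be told apart. The levels spread over more than 3 powers of 10: in Huh1 with NCsiRNA, 10 members were at 100 RPKM or more, 24 at 1 RPKM or more and 2 at 0. Over the 4 libraries, 25 members reached 1 RPKM in at least 1. The remaining 11 (A1BG, CRP, SAA1, SAA2, CD14, PZP, ITIH3, FETUB, IGFALS, HGFAC and AZGP1) stayed below 1 RPKM in every library.

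**Figure D1:**
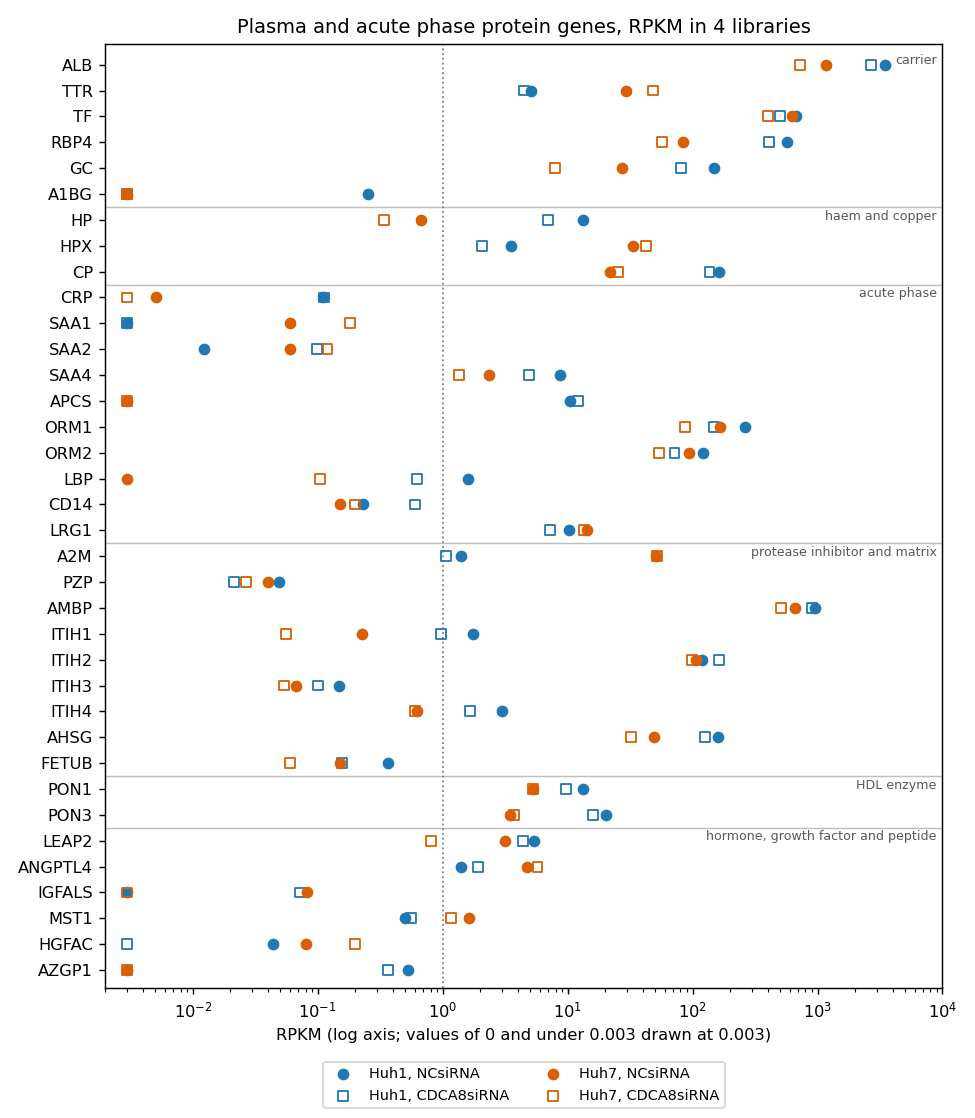
RPKM of the 36 genes in each of the 4 libraries, on a logarithmic axis, grouped by the role of the protein. Filled circles are NCsiRNA and open squares CDCA8siRNA, blue is Huh1 and orange Huh7, the dotted line is at 1 RPKM, and values of 0 are drawn at the left edge. ALB lies farthest to the right. Among the members that reach 1 RPKM in a library, A2M, HPX and TTR have orange points far to the right of the blue ones.

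With CDCA8siRNA, the median change of the members that could be compared was below that of all genes in each cell line. In the fit over both lines 8 members fell: GC, ORM1, ORM2, SAA4, TF, ALB, RBP4 and AHSG. Differences are given on the scale of log2(RPKM + 1), where 1 is 2-fold and where the added 1 makes the differences of low genes smaller than their plain ratio. A ± after such a difference is the SD that the number of reads alone would give, so it covers counting error only. In Huh1, 24 members passed a minimum of 1 RPKM in either library, of which 21 were lower and 3 higher (ANGPTL4, APCS and ITIH2). The median of the 24 was -0.41 against 0.023 over all 10940 genes. LBP and ITIH1 passed there only through the NCsiRNA library, so for them a lower value was bound to appear. With the minimum required of both libraries, 22 members passed, with a median of -0.38. The share of all genes that were lower by any amount in a single line was not computed. None of the 24 reached 2-fold, where 0.320% of all genes were higher by 2-fold or more and 0.174% lower by as much. In Huh7, 20 members passed, of which 13 were lower and 7 higher, with a median of -0.32 against 0.033 over 11565 genes. GC and LEAP2 were at least 2-fold lower there, 2 of 20 members beside 0.700% of all genes, and no member was among the 0.873% that were at least 2-fold higher. LEAP2 passed only through the NCsiRNA library, in which it was higher, and with the minimum required of both libraries GC alone remained, 1 of 19 members beside 0.658% of all genes. Without a minimum the median of the members in Huh7 was -0.069, and in Huh1 -0.26. These counts compare 1 library with 1 library and carry no test.

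Of the 19 members that passed in both cell lines, 11 (57.9%) were lower in both, against 30.5% of all 10357 genes. LEAP2 is among these 11 but passed in Huh7 only through NCsiRNA, so its lower value there was bound to appear. ANGPTL4 was the single member higher in both, a course taken by 39.0% of all genes. The other 7, A2M, CP, HPX, ITIH2, PON1, PON3 and TTR, differed in opposite directions in Huh1 and Huh7, as did 30.6% of all genes. The fit was made with limma on all 4 libraries, allowing for the difference between the lines, and it measures whether both lines changed alike, not the spread between cultures. It gave an adjusted p under 0.05 in the lower direction for 8 of 19 members (42.1%), against 4.21% of all genes. In the higher direction it called 6.03% of all genes and none of the 19 members. At an unadjusted p under 0.05, 10 members were lower and 0 higher, beside 2694 of all 10357 genes in either direction. Without the minimum on low values the fit called 0 of 17039 genes.

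**Figure D2:**
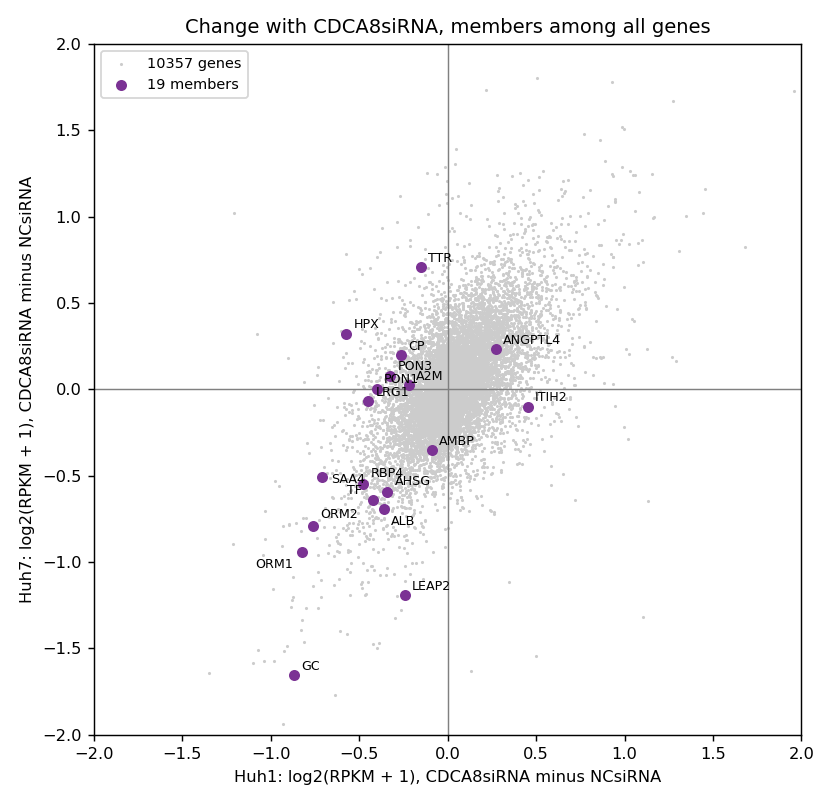
Change with CDCA8siRNA in Huh1 (horizontal) and Huh7 (vertical), each as the difference of log2(RPKM + 1) from NCsiRNA. Grey points are the 10357 genes that passed in both cell lines, 7 of them outside the axes, and purple points are the 19 members among them. Of the members, 11 lie in the lower left part of the plot and 1, ANGPTL4, in the upper right.

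**Figure D3:**
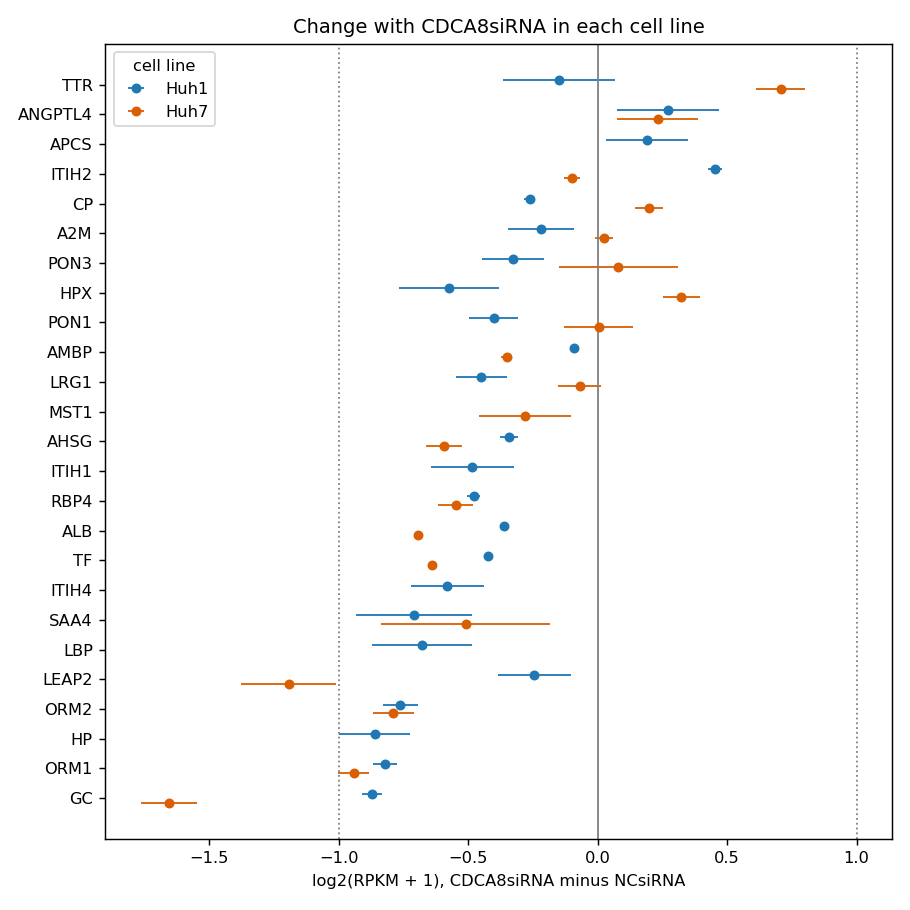
Difference of log2(RPKM + 1) between CDCA8siRNA and NCsiRNA for each member that passed the minimum of 1 RPKM, blue for Huh1 and orange for Huh7. Bars are the SD from counting of reads alone, are smaller than the points for the most abundant genes and were not computed for TF, and dotted lines mark 2-fold. GC in Huh7 lies farthest to the left at -1.65, and TTR in Huh7 farthest to the right at 0.71.

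Among the carriers, ALB had 3447 RPKM in Huh1 with NCsiRNA, 2684 RPKM in Huh1 with CDCA8siRNA, 1166 RPKM in Huh7 with NCsiRNA and 721 RPKM in Huh7 with CDCA8siRNA. It was thus highest in Huh1 with NCsiRNA, where it ranked 7 among all rows, and lowest in Huh7 with CDCA8siRNA, where it ranked 74. The difference with CDCA8siRNA was -0.36 ± 0.0068 in Huh1 and -0.69 ± 0.013 in Huh7, leaving 77.9% and 61.8% of the NCsiRNA value. In the limma fit ALB fell by 0.53 on the log2 scale (SE 0.0803, adjusted p = 0.0059). Quantile normalization made the change smaller, to -0.088 in Huh1, -0.57 in Huh7 and -0.33 in the fit, where ALB was still called.

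TF, the transferrin that carries iron, had 675 and 503 RPKM in Huh1 and 628 and 403 RPKM in Huh7, here and in what follows with NCsiRNA and then with CDCA8siRNA. The levels of both lines were close with NCsiRNA, and 74.4% and 64.1% of them were left with CDCA8siRNA (limma, log2 difference -0.53, SE 0.0755, adjusted p = 0.0046). GC, the vitamin D binding protein, had 148 and 80.7 RPKM in Huh1 and 27.3 and 7.98 RPKM in Huh7. It was the member with the lowest value of all in the fit, -1.26 on the log2 scale (limma, SE 0.157, adjusted p = 0.0025), and 54.4% was left in Huh1 and 29.3% in Huh7. The difference of -1.65 ± 0.11 in Huh7 rests on about 656 and 193 reads.

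RBP4 carries retinol, and in plasma it circulates bound to TTR, the transthyretin that also carries thyroid hormone. RBP4 had 570 and 409 RPKM in Huh1 and 83.2 and 56.6 RPKM in Huh7. It was lower with CDCA8siRNA to a like degree in both lines, with 71.7% and 68.0% left (limma, log2 difference -0.51, SE 0.0764, adjusted p = 0.0055). TTR had 5.10 and 4.49 RPKM in Huh1 and 29.3 and 48.5 RPKM in Huh7. Its difference was -0.15 ± 0.22 in Huh1, which is within counting error, and 0.71 ± 0.096 in Huh7, so the members of this pair differed in opposite directions in Huh7. There were 112 and 91.0 RBP4 transcripts per TTR transcript (as a ratio of RPKM) in Huh1, and 2.84 and 1.17 in Huh7. A1BG, a plasma glycoprotein, was the remaining carrier and was listed at 0 in 3 of the 4 libraries.

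Of the members that handle haem and copper, HPX and CP were lower with CDCA8siRNA in Huh1 and higher in Huh7. Opposite directions were also seen in 30.6% of all genes. HP was lower in both lines, though in Huh7 it stayed below the minimum. HP, the haptoglobin that binds free haemoglobin, had 13.4 and 6.91 RPKM in Huh1 and 0.668 and 0.342 RPKM in Huh7, the latter on about 12 and 6 reads. In Huh1 the difference with CDCA8siRNA was -0.86 ± 0.14, and in Huh7 HP did not reach the minimum of 1 RPKM. Reads of HP and of its near copy HPR may have been divided between them. HPX, the hemopexin that binds free haem, had 3.54 and 2.05 RPKM in Huh1 and 33.4 and 42.1 RPKM in Huh7, which is a difference of -0.57 ± 0.19 in Huh1 and 0.32 ± 0.072 in Huh7. HPX was therefore low where HP was high and high where HP was low, with 0.265 and 0.297 HPX per HP transcript in Huh1 and 50.03 and 123 in Huh7. CP, the copper-carrying ferroxidase ceruloplasmin, had 164 and 137 RPKM in Huh1 and 21.9 and 25.3 RPKM in Huh7. Its differences of -0.26 ± 0.021 and 0.20 ± 0.053 were again in opposite directions, and the fit over both lines gave -0.032 (limma, adjusted p = 0.89).

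Of the acute phase proteins, the orosomucoids ORM1 and ORM2 were abundant in both lines and fell in the fit over both. ORM1 had 261 and 148 RPKM in Huh1 and 167 and 86.5 RPKM in Huh7, and ORM2 had 122 and 71.6 RPKM in Huh1 and 93.4 and 53.7 RPKM in Huh7. Their log2 differences were -0.82 ± 0.045 and -0.94 ± 0.060 for ORM1 and -0.76 ± 0.067 and -0.79 ± 0.080 for ORM2. The change in Huh7 minus that in Huh1 was -0.12 ± 0.075 and -0.028 ± 0.10, so neither gene differed between the lines by much more than its counting error. The limma fit gave -0.88 for ORM1 (SE 0.0795, adjusted p = 0.00087), which ranked 13 by p among all genes, and -0.78 for ORM2 (SE 0.083, adjusted p = 0.0013). These genes are near copies whose reads may have been divided, so that the ratio of ORM1 to ORM2, 2.14 and 2.06 in Huh1 and 1.79 and 1.61 in Huh7, is uncertain.

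SAA4, the constitutive serum amyloid A, had 8.65 and 4.90 RPKM in Huh1 and 2.34 and 1.35 RPKM in Huh7. With 56.7% and 57.6% left, it fell by 0.61 on the log2 scale in the limma fit (SE 0.131, adjusted p = 0.022), although its values in Huh7 rest on about 21 and 12 reads. Its row may also have taken reads of a transcript that joins SAA2 and SAA4. The inducible SAA1 and SAA2, near copies of each other, stayed below 1 RPKM throughout, as did CRP and CD14. LRG1, a leucine-rich glycoprotein of plasma, had 10.3 and 7.26 RPKM in Huh1 and 14.3 and 13.6 RPKM in Huh7. It differed by -0.45 ± 0.098 in Huh1 and by -0.069 ± 0.084, within counting error, in Huh7 (limma, adjusted p = 0.22 over both lines).

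APCS, the pentraxin serum amyloid P, had 10.5 and 12.1 RPKM in Huh1, a difference of 0.19 ± 0.16, and was listed at 0 in both Huh7 libraries, where 3 reads would have given 0.266 and 0.264 RPKM. LBP, which presents bacterial lipopolysaccharide to CD14, had 1.60 and 0.624 RPKM in Huh1 and 0 and 0.104 RPKM in Huh7. In Huh1 39.0% of LBP was left, on about 42 and 16 reads, which is a plain ratio beyond 2-fold but a difference of -0.68 ± 0.19 on the log2(RPKM + 1) scale.

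Among the protease inhibitors and matrix proteins, AMBP encodes a precursor that is cut into a small haem-binding carrier protein and bikunin, the light chain of the inter-alpha-inhibitors, and the ITIH genes encode their heavy chains. AMBP had 962 and 903 RPKM in Huh1 and 654 and 513 RPKM in Huh7, with 93.9% and 78.3% left and no call (limma, log2 difference -0.22, SE 0.0774, adjusted p = 0.11). ITIH2 had 119 and 163 RPKM in Huh1 and 106 and 99.3 RPKM in Huh7. It was higher with CDCA8siRNA in Huh1 by 0.45 ± 0.027, where 21 of 24 members were lower, and differed by -0.10 ± 0.032 in Huh7. The other heavy chains were scarce. ITIH4 had 2.98 and 1.66 RPKM in Huh1 and 0.624 and 0.596 RPKM in Huh7, and ITIH1 had 1.75 and 0.964 RPKM in Huh1 and 0.225 and 0.056 RPKM in Huh7. ITIH3 stayed below 1 RPKM. ITIH1 and ITIH4 thus differed from ITIH2 in their direction in Huh1, with -0.48 ± 0.16 and -0.58 ± 0.14. The AMBP transcripts per ITIH2 transcript, as a ratio of RPKM, were 8.09 and 5.54 in Huh1 and 6.15 and 5.16 in Huh7.

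AHSG, the fetuin-A that keeps calcium phosphate in solution, had 160 and 126 RPKM in Huh1 and 49.4 and 32.4 RPKM in Huh7. It fell in the fit (limma, log2 difference -0.47, SE 0.0932, adjusted p = 0.017), with 78.8% left in Huh1 and 65.6% in Huh7, while its relative FETUB stayed below 1 RPKM. A2M, the broad protease inhibitor alpha-macroglobulin, had 1.40 and 1.06 RPKM in Huh1 and 51.1 and 52.0 RPKM in Huh7. Its difference with CDCA8siRNA was -0.22 ± 0.13 in Huh1 and 0.024 ± 0.036, within counting error, in Huh7. PZP, a near relative with which A2M may share reads, was below 1 RPKM.

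The paraoxonases PON1 and PON3 are enzymes carried on high density lipoprotein. PON1 had 13.2 and 9.73 RPKM in Huh1 and 5.24 and 5.26 RPKM in Huh7, and PON3 had 20.2 and 15.9 RPKM in Huh1 and 3.44 and 3.70 RPKM in Huh7. Both were lower with CDCA8siRNA in Huh1, by -0.40 ± 0.096 and -0.33 ± 0.12, and both were within counting error of 0 in Huh7, at 0.0039 ± 0.13 and 0.080 ± 0.23. PON3 exceeded PON1 in Huh1, with ratios of 1.53 and 1.63, and was below it in Huh7, with 0.657 and 0.703.

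Of the hormones, growth factors and peptides, LEAP2, a liver peptide that antagonizes the ghrelin receptor, had 5.39 and 4.40 RPKM in Huh1 and 3.13 and 0.807 RPKM in Huh7. In Huh7 25.8% was left, a difference of -1.19 ± 0.18 on about 84 and 22 reads, against -0.24 ± 0.14 in Huh1, and over both lines the call was missed (limma, log2 difference -0.72, SE 0.203, adjusted p = 0.056). ANGPTL4, which inhibits lipoprotein lipase, had 1.41 and 1.91 RPKM in Huh1 and 4.74 and 5.74 RPKM in Huh7. Its differences of 0.27 ± 0.20 and 0.23 ± 0.16 were positive in both lines without a call (limma, adjusted p = 0.26). MST1, a hepatocyte growth factor-like protein whose reads may be divided with copies of the gene, did not exceed 1.63 RPKM, and IGFALS, HGFAC and AZGP1 stayed below 1 RPKM.

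Between the cell lines the differences were larger, and they ran in both directions. With NCsiRNA, 25 members passed and 13 were at least 2-fold lower in Huh7 than in Huh1 (52.0%, against 10.2% of all 11896 genes), namely AHSG, ALB, APCS, CP, GC, HP, ITIH1, ITIH4, LBP, PON1, PON3, RBP4 and SAA4. A2M, ANGPTL4, HPX and TTR were higher in Huh7 by 2-fold or more, which is 16.0% of the 25 members and close to the 17.0% of all genes. APCS, HP, ITIH1, ITIH4 and LBP passed only through Huh1, so for them a lower value in Huh7 was bound to appear. With the minimum required of both libraries, 8 of 19 members were lower by 2-fold or more (42.1%, against 7.41% of all 10109 genes) and 4 higher (21.1%, against 11.7%). With CDCA8siRNA, 10 of 23 were at least 2-fold lower (43.5%, against 10.1% of all 12005 genes) and the same 4 members were higher by 2-fold or more (17.4%, as among all genes, 17.4%). APCS, HP, ITIH4 and LEAP2 passed only through Huh1 there, and with the minimum required of both libraries 7 of 18 members were lower by 2-fold or more (38.9%, against 7.54% of all 10220 genes) and 4 higher (22.2%, against 11.8%). The median difference was -1.16 and -0.78 over the members that passed and 0.14 over all genes with either siRNA. It was -0.35 and -0.45 over the members without a minimum, and -0.63 and -0.77 with the minimum required of both libraries. After quantile normalization, which brings the median of all genes to about 0, the split of all genes with NCsiRNA moved from 2028 higher and 1211 lower to 1644 and 1504, and 3 members were higher by 2-fold or more, without ANGPTL4.

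A2M was 36.6 times as high in Huh7 as in Huh1 with NCsiRNA and 49.1 times with CDCA8siRNA, HPX 9.43 and 20.5 times, TTR 5.76 and 10.8 times and ANGPTL4 3.35 and 3.003 times, by the ratio of RPKM. In the other direction, HP in Huh7 was at 5.001% and 4.95% of its Huh1 level, CP at 13.4% and 18.5%, RBP4 at 14.6% and 13.8%, GC at 18.4% and 9.89% and ALB at 33.8% and 26.9%. TF, ORM2 and ITIH2 were the abundant members closest between the lines with NCsiRNA, with differences of -0.10, -0.38 ± 0.063 and -0.16 ± 0.030. For comparison, the fetal counterpart of albumin, AFP, was at 24.8 and 27.5 RPKM in Huh1 and 865 and 715 RPKM in Huh7. There were 139 and 97.8 ALB per AFP transcript in Huh1, and 1.35 and 1.007 in Huh7.

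In the limma fit over the 4 libraries with the siRNA as a covariate, all 25 members tested had an adjusted p under 0.05, 6 higher in Huh7 (A2M, ANGPTL4, HPX, LRG1, MST1 and TTR, against 42.5% of all 12148 genes) and 19 lower (against 28.7%). The call for TF turned in direction and was lost under quantile normalization, and that for MST1 was lost. TF also lost its call without the trend, TF and ITIH2 without the filter on low values, and ITIH2, LEAP2, ORM1, ORM2 and TF without the siRNA as a covariate. APCS, HP, ITIH1, ITIH4, LBP and MST1 passed the minimum only through the line in which they were higher, so for them a difference was bound to appear. The fit gave 4.56 for A2M (SE 0.114, adjusted p = 7.94e-09), -2.80 for RBP4 (SE 0.0755, adjusted p = 1.26e-08) and 2.74 for TTR (SE 0.178, adjusted p = 2.09e-06). Markers of other cells moved with the same contrast. The summed RPKM of 3 fibroblast markers was 0.134 and 0.122 in Huh1 and 108 and 127 in Huh7, nearly all COL1A1. In Huh7, DCN was at 0.136 and 0.406 RPKM and ACTA2 at 0.720 and 1.06 RPKM. The sum of 3 leukocyte markers was 24.1 and 17.3 in Huh1, nearly all CD68, and 3.79 and 4.15 in Huh7. That of 4 bile duct markers was 114 and 123 in Huh1 and 164 and 168 in Huh7. The part of these markers in the differences was not tested.

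**Figure D4:**
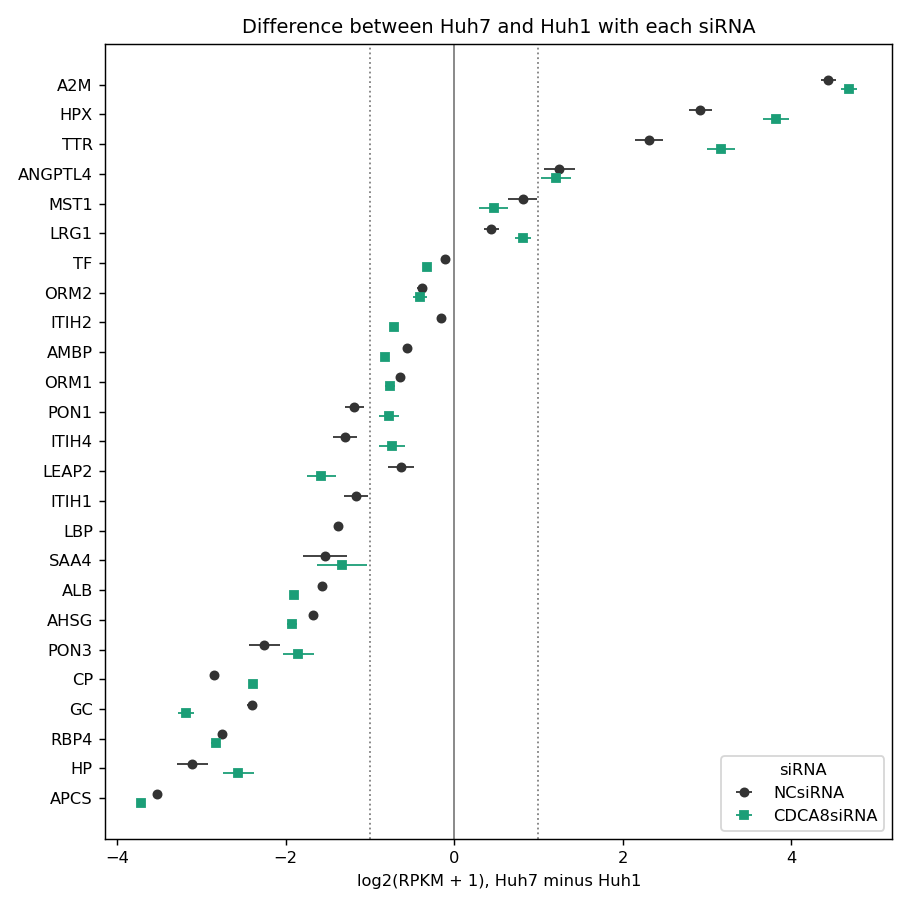
Difference of log2(RPKM + 1) between Huh7 and Huh1 for each member that passed, with NCsiRNA as dark circles and with CDCA8siRNA as green squares. Bars are the SD from counting of reads alone, left out where a library is at 0 or no length was used, and dotted lines mark 2-fold. A2M, HPX, TTR and ANGPTL4 lie to the right of the upper line with both siRNAs, and APCS lies farthest to the left.

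The signalling genes of the acute phase response went both ways. Of 19 such genes, 13 were tested over both lines and limma called none. At an unadjusted p under 0.05, 2 were higher and 1 lower, beside 2694 of all 10357 genes in either direction. The medians were 0.032 in Huh1 and -0.0062 in Huh7. The genes named next were picked after their values were seen. In Huh7, STAT3 differed by 0.58 ± 0.052, its feedback inhibitor SOCS3 by -0.92 ± 0.15, the receptor gene LIFR by -0.69 ± 0.070 and NFKBIA, an inhibitor of NF-kappa-B, by 0.35 ± 0.056. In Huh1, CEBPD differed by 0.51 ± 0.11, CEBPB by -0.38 ± 0.074 and IL6R by 0.59 ± 0.058. IL6R, the interleukin-6 receptor, was at 22.1 and 33.7 RPKM in Huh1 and at 0.530 and 0.680 RPKM in Huh7, and the transcripts of the ligands IL6 and IL1B stayed below 1 RPKM. Of 13 liver transcription factors, 12 were tested and 5 fell with CDCA8siRNA, where 4.21% of all genes did: CEBPA, HNF4A, NR1H4, ONECUT1 and PROX1. CEBPA, the C/EBP factor of resting liver, had 94.4 and 47.2 RPKM in Huh1 and 68.9 and 30.3 RPKM in Huh7 (limma, log2 difference -1.07, SE 0.0911, adjusted p = 0.00079). HNF4A had 86.1 and 59.1 RPKM in Huh1 and 55.4 and 38.8 RPKM in Huh7 (limma, log2 difference -0.52, adjusted p = 0.0088), and NR1H4, the bile acid receptor FXR, had 41.9 and 22.1 RPKM in Huh1 and 6.65 and 3.44 RPKM in Huh7. The median of the transcription factors was -0.26 in Huh1 and -0.54 in Huh7.

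Among 21 receptors and partners of the secreted proteins, 7 were tested, of which SLC40A1 rose and APOA1 and TFRC fell (6.03% and 4.21% of all genes). SLC40A1, the iron exporter ferroportin that works beside CP, had 342 and 505 RPKM in Huh1 and 81.0 and 128 RPKM in Huh7 (limma, log2 difference 0.61, SE 0.0761, adjusted p = 0.0025). TFRC, the receptor of transferrin, had 185 and 164 RPKM in Huh1 and 188 and 120 RPKM in Huh7 (limma, log2 difference -0.41, adjusted p = 0.045). Of the others, LY96, a partner of CD14, was listed at 0 in Huh7 with NCsiRNA and had 1.06 RPKM with CDCA8siRNA, the library through which it passed, and had 0.607 and 0.370 RPKM in Huh1. Of 14 genes of the secretory pathway, 4 fell, the translocon subunit SEC61A1, the chaperone HSPA5, the disulfide isomerase PDIA4 and the cargo receptor subunit MCFD2, and the Golgi protein GOLGA2 rose (4.21% and 6.03% of all genes). Of the 9 hepatocyte markers, 6 fell, where 4.21% of all genes did: ALB, APOA1, APOB, FGB, HNF4A and SERPINA1. These calls are partly the same as those above, since ALB is a member, HNF4A a listed transcription factor and APOA1 a listed partner. Of the bile duct markers 3 were tested and of the leukocyte markers 1, with no call. At an unadjusted p under 0.05 (limma), 1 was higher and 0 lower, beside 2694 of all 10357 genes in either direction. None of the fibroblast and endothelial markers reached the minimum in both lines.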

How the data were processed

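The authors aligned the reads and deposited, per library, 1 RPKM value for each of 18398 RefSeq transcripts, a unit deduced from the values. The submitters' processing notes name CASAVA 1.8.2, TopHat2 2.0.9 and hg19, and the counter is not given in the sources used here. Libraries came from total RNA with an Illumina TruSeq RNA kit. Reads per gene were estimated with GENCODE 29 lengths up to 20000 nt, so not for TF.

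Values were compared as log2(RPKM + 1) among genes with at least 1 RPKM in 1 library of the pair (for the siRNA fit, in 1 library of each cell line), and called at 2-fold. limma 3.58.1 in R 4.3.3 (lmFit, eBayes with trend, Benjamini-Hochberg) fitted cell line and siRNA to all 4 libraries, with 1 residual degree of freedom. The variance prior, estimated over the genes tested, held 8.29 degrees of freedom in the siRNA fit and 7.48 in the line fit. The p-values therefore rest mostly on that prior. On simulated libraries with 200 genes changed alike in both lines, the siRNA fit called 226 of 13765 genes, 26 of them unchanged. The spread between the simulated libraries was set in advance, not measured. The result is thus a check of the code and gives no error rate for these data. Alternatives were other pseudocounts, filters, normalizations and fits. The labels give no batch. The members and lists were chosen with earlier results of these data known. Members with at least 10 RPKM or a 2-fold difference are given in all libraries, and genes of other lists where called.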

Additional observations from a re-analysis of the deposited data

Results flagged for a closer look

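For 7 members the change with CDCA8siRNA had one sign in Huh1 and the other in Huh7. The difference between the lines was not tested, because 1 library per condition leaves no spread for it, and 30.6% of all genes also differed in opposite directions. As the change with CDCA8siRNA in Huh7 minus that in Huh1, on the log2(RPKM + 1) scale, it was 0.90 for HPX (counting SD 0.21), 0.86 for TTR (counting SD 0.24) and 0.46 for CP (counting SD 0.057). ITIH2 gave -0.55 (counting SD 0.041), PON1 0.41 (counting SD 0.16), PON3 0.41 (counting SD 0.26) and A2M 0.24 (counting SD 0.13). Under quantile normalization PON1 and PON3 were also lower in Huh7, at -0.069 and -0.022. For TTR the value in Huh1, and for A2M, PON1 and PON3 the value in Huh7, was within counting error of 0.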

How the results depend on the processing

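No replicate could be left out, since each condition has 1 library. Replicates could not be paired, because the labels give no replicate numbers that groups share. The siRNA fit compared the 2 siRNAs within each cell line, through the cell line as a covariate. With a pseudocount of 0.1 RPKM, 1 member (LBP) was at least 2-fold lower in Huh1, and the genes at least 2-fold higher and lower numbered 107 and 57 in Huh1 (35 and 19 with 1 RPKM) and 269 and 153 in Huh7 (101 and 81). With a minimum of 5 RPKM, 1 member (GC) was at least 2-fold lower in Huh7, since LEAP2 no longer passed. A minimum of 1 RPKM in both libraries, chosen after seeing the data, left 1 member (GC) at least 2-fold lower in Huh7 with CDCA8siRNA and 8 members at least 2-fold lower in Huh7 than in Huh1 with NCsiRNA. The 8 members that fell in the limma siRNA fit were reduced to 0 without a filter on low values, where 0 of 17039 genes were called. There 11 members were lower at an unadjusted p under 0.05, beside 2440 of all genes in either direction, and the cause was not tested. Without the cell line as a covariate, 0 members and 0 of 10357 genes were called. At an unadjusted p under 0.05 there were 0 members and 89 genes in that fit, where the difference between the lines enters the residual spread by construction. The members called were 7 without the trend, which lost AHSG, and 9 under quantile normalization, which added LEAP2. Under quantile normalization TF was 0.056 higher in Huh7, in place of -0.21, AMBP differed by 0.00 in Huh1 with the siRNA, in place of -0.091, the split of all genes in the line fit was 4358 higher and 4353 lower in place of 5162 and 3492, and that in Huh1 with the siRNA was 22 and 20 in place of 35 and 19. In all, 840 values of single members or medians over the members were compared under an alternative. Of these, 715 kept their direction and side of the threshold or moved by less than the counting error. A further 97 moved by more, 26 lost a call, 1 gained one and 1 was counted as reversed. A pairwise difference was counted as reversed only if it had reached 2-fold, so smaller changes of sign are among the others. A changed minimum leaves the pairwise difference of a member that passes as it was, so those values were bound to be kept. The limma differences likewise keep their size without the trend or the covariate, where only a call could change. The number of kept values is therefore no measure of robustness. With NCsiRNA, TF between the lines went from -0.10 to 0.17 under quantile normalization. Depth limits HP, LBP and ITIH1 in Huh7, each at about 12 reads or fewer.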
